A study of Mus musculus with 8 samples.

Results

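The rostral and the caudal part of the mouse nephric duct were compared at 2 stages, on 4 of the 8 arrays of the series. The arrays were picked by their labels: cells positive for the Hoxb7-GFP transgene and negative for Flk1, taken from the rostral or the caudal part of the Wolffian duct at embryonic day E9.5 (1 array each) and E10.5 (1 array each). All were sorted by flow cytometry from embryos of the ICR strain, and every duct array carries the same transgene, in which a Hoxb7 promoter drives GFP. The other 4 arrays are E8.75 duct cells, the E11.5 ureteric bud, and a rostral and a caudal array of Wt1-GFP-positive cells at E9.5, and of these the last pair is read here; the others enter only in alternative fits over all 8 arrays. The labels do not give the number of embryos behind an array or the level at which embryos were divided.

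The nephric duct is an epithelial tube that forms beside the anterior somites and grows caudally through the intermediate mesoderm until it reaches the cloaca. Its leading end responds to GDNF through the receptor Ret, and the ureteric bud, the origin of the collecting ducts, later branches from its caudal part, while its rostral part lies along the mesonephros. Hox genes of low paralogue number are generally expressed further rostrally than those of high number, and retinoic acid, FGF, Wnt and the Cdx factors act on that order.

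The level of a probe is its processed signal on the log2 scale, scaled so that the 75th percentile of each array is 0, and a difference is the rostral level minus the caudal level, so that a negative value means higher in the caudal part. Each stage has 1 array per side. A difference within a stage is therefore a value without a test, and a gene was called at a stage when it lay past 2-fold (1 on the log2 scale) with the brighter array well above background. Where the dimmer array was not well above background it was set to its own level or to a floor, whichever was higher. The floor was the dimmest level measured well above background on that array. The fold is then a lower bound, written "at least" directly before that fold and meant for it alone. On the 4 arrays 61.5% to 69.1% of probes cleared the background threshold, no spot was saturated, and repeated spots of a probe differed by a median SD of 0.08 to 0.09 on the log2 scale, which is spot error within an array and not spread between embryos. All arrays lay on 1 slide. Both E9.5 arrays and the E10.5 rostral array lay in slide row 1 and the E10.5 caudal array in row 2, so within the E10.5 pair position and slide row cannot be told apart.

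The genes behind the sort and the duct itself were read first. Hoxb7 lay at 2.44 and 2.30 (E9.5 rostral and caudal) and at 3.22 and 3.17 (E10.5 rostral and caudal). The duct factor Pax2 lay between 4.92 and 5.37 on all 4 arrays, and Lhx1 between 2.70 and 3.69. Kdr, the gene of the Flk1 protein by which cells were sorted out, still read 1.62 to 1.95, and its difference was 0.11 at E9.5 and -0.08 at E10.5. The second Kdr probe gave differences of 0.65 and 0.15, and the Kdr level on the Wt1-GFP arrays, for which the labels name no Flk1 gate, was 2.10 on both.

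The promoters of 4 of the genes described below are printed here because Cdx1 is among the caudal genes and the core motif of Cdx factors was looked for. Each runs from 250 bases before to 50 bases after the start of the gene in RefSeq (build GRCm38.p6), and capitals mark TTTATG on either strand (CATAAA on the strand shown). Hoxd11 (chr2:74679308-74679607, plus strand), Krt23 (chr11:99493071-99493370, minus strand) and S100a6 (chr3:90612644-90612943, plus strand) were higher in the caudal part at both stages, and Hoxa9 (chr6:52227321-52227620, minus strand) was higher in the rostral part at both.
Hoxd11: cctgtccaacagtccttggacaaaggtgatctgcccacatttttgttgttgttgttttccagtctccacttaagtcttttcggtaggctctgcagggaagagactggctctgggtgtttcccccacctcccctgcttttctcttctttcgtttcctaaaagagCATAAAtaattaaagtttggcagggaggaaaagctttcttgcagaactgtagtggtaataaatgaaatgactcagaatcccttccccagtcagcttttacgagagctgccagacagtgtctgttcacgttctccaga
Krt23: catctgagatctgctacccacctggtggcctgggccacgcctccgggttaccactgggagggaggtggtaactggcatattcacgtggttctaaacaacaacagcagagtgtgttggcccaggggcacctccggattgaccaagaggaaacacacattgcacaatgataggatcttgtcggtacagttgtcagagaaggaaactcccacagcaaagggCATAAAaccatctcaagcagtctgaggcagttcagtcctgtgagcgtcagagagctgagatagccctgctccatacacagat
S100a6: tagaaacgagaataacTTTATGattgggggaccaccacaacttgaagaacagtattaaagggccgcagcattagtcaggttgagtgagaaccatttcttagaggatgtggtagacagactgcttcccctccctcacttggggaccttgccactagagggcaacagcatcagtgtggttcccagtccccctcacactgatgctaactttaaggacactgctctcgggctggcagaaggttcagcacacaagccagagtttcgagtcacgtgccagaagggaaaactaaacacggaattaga
Hoxa9: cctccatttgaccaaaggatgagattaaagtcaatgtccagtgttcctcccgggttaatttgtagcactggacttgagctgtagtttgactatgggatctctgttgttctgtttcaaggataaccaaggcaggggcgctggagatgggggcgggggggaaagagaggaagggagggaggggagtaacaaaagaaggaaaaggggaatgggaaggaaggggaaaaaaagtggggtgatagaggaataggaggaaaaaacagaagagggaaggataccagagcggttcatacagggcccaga
The 3 caudal promoters were picked because they hold a match. Of the others looked at, those of Aldh1a1, Wnt6, Gchfr, Egfl6, Hoxd10, Stra6, Gfra1 and Sox8 held 0 matches, as did the other start of Hoxd11. TTTATG stood in 19 of 169 promoters (11.2%) of genes higher caudally in both pairs and in 12 of 232 (5.17%) of genes higher rostrally in both, against 8.1% of the 17397 promoters of all genes tested and 11.9% of all 32851 promoters of the table. The caudal share lay between those of the 2 backgrounds. A direct repeat spaced by 5 bases, as retinoic acid receptors bind, was searched as a pair of AGGTCA and as a pair of AGTTCA, on both strands. The first was in 0 promoters of either group, and the second in 1 caudal promoter (0.592%) against 0.0172% of tested genes, which is 3 promoters in all. A match is a description of the letters and not a binding site.

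Across the genome, the differences at E9.5 and E10.5 were only loosely related. Of 27668 genes above background on at least 1 of the 4 arrays, 3608 (13%) lay past 2-fold at E9.5, with 2202 higher rostrally (7.96%) and 1406 higher caudally (5.08%). The rostral share of these calls was 61.0%, and 49.4% under quantile normalization. At E10.5 the number was 3284 (11.9%), with 1267 higher rostrally (4.58%) and 2017 higher caudally (7.29%). The rostral share was 38.6%, and 52.4% with measured levels in place of the floor. Past 2-fold the same way at both stages were 532 genes (1.92%), 320 higher rostrally (1.16%) and 212 higher caudally (0.766%), and 387 genes (1.4%) were past 2-fold in opposite directions, 262 (0.947%) of them higher rostrally at E9.5 and 125 (0.452%) higher caudally. Genes that differed the same way thus outnumbered those that differed oppositely by 1.37 to 1. Among the 9223 brightest genes the numbers were 60 against 24, and among the 9223 dimmest 222 against 192. Across genes, which are not independent replicates, the 2 differences had Pearson's r = 0.06 and Spearman's rho = 0.10 (27668 genes).

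Read from one stage to the other, the overlap exceeded the background in both directions. Of the genes higher rostrally at E9.5, 14.5% were higher rostrally at E10.5 (background 4.58%) and 11.9% were higher caudally (background 7.29%). Of those higher caudally at E9.5, 15.1% were higher caudally at E10.5 (background 7.29%) and 8.89% were higher rostrally (background 4.58%). The limma fit over both stages, with stage as a block and 1 residual degree of freedom, called 0 of 27668 genes at a Benjamini-Hochberg adjusted p of 0.05, the lowest being 0.81. At an unadjusted p under 0.05 it gave 1688 genes (6.1%), against about 1383 by chance. The residual of this fit is the disagreement between the E9.5 and the E10.5 difference. A change of the difference with stage therefore counts as error in these p-values. No label names the animals behind the 4 arrays, and spread between embryos of a stage was not measured. An exact permutation test over 2 pairs could not give a two-sided p below 0.5. The values that follow therefore describe these 4 arrays, and in such bulk samples fewer cells of a type and less RNA per cell cannot be told apart.

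**Figure D1:**
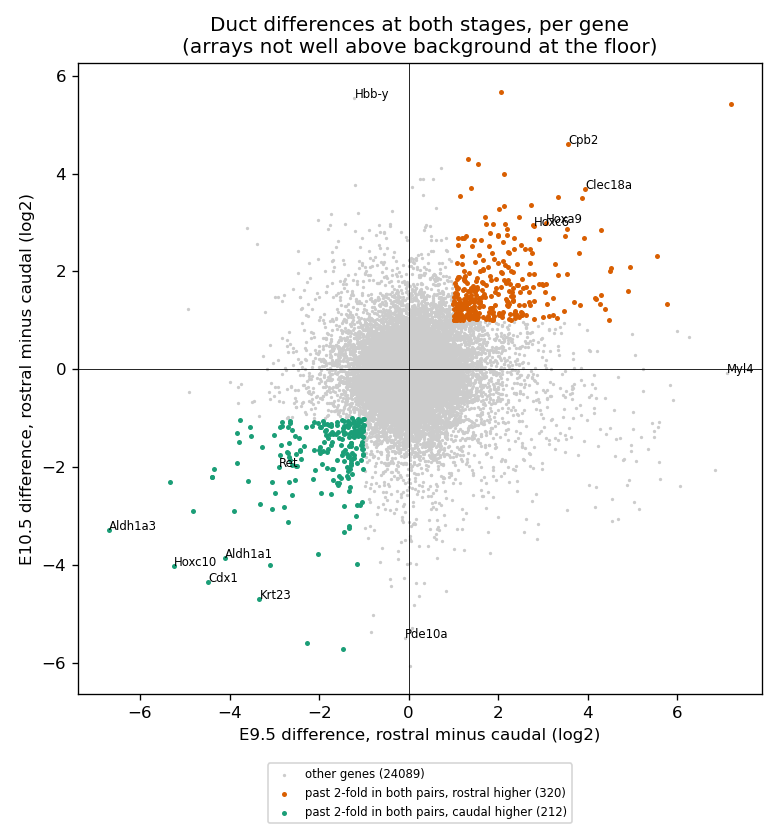
Rostral minus caudal difference at E9.5 (horizontal) against E10.5 (vertical), both on the log2 scale, for genes with a value at both stages; orange and green points are past 2-fold the same way in both pairs (320 and 212 genes), grey points are the rest. Few genes lie on the diagonal, and Myl4 and Pde10a are examples of genes that differ at 1 stage only.

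Some Hox genes of the middle groups were higher rostrally at both stages and Hoxc10, Hoxd10 and Hoxd11 higher caudally, while the Hoxb cluster up to group 8 was nearly flat. Hoxc10 read -2.39 (rostral) and 2.85 (caudal) at E9.5 and -3.39 and 0.63 at E10.5, which is 37.8-fold and 16.2-fold higher caudally. Both caudal arrays lay above both rostral arrays. Hoxd11 read -4.04 and 0.78 at E9.5 and -6.76 (not well above background) and -1.87 at E10.5, 28.3-fold and at least 7.39-fold higher caudally, and its second probe gave -7.27 and -5.41. Hoxd10 was 5.7-fold and 3.34-fold higher caudally. Of the 14 measured Hox genes of groups 9 to 13, 3 were past 2-fold caudally at both stages (Hoxc10, Hoxd10 and Hoxd11) and 1 rostrally. Over all genes the shares were 0.766% and 1.16%. The list's median difference was -0.93 at E9.5 and -0.97 at E10.5, beside 0.06 and -0.04 over all genes.

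Of group 9, Hoxa9, Hoxb9 and Hoxd9 did not share the caudal direction of Hoxc10, Hoxd10 and Hoxd11, and Hoxc9 changed sign between the stages. Hoxa9 read -0.24 (rostral) and -3.32 (caudal) at E9.5 and 0.09 and -2.90 at E10.5, 8.41-fold and 7.99-fold higher rostrally, and its second probe gave 2.47 and 2.70. In the Wt1-GFP cells Hoxa9 was 3.37-fold higher caudally, so the duct and the Wt1-GFP pair differ in sign. Hoxd9 was 1.33-fold and 2.17-fold higher rostrally, and Hoxb9 3.99-fold and 1.89-fold.

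Of the 11 measured Hox genes of groups 5 to 8, 3 were past 2-fold rostrally at both stages (1.16% of all genes) and 0 caudally (0.766%). Hoxc6 read 3.35 and 0.56 at E9.5 and 0.90 and -2.04 at E10.5, 6.93-fold and 7.67-fold higher rostrally. The rostral and caudal arrays of each stage were far apart, but the E9.5 caudal level lay close to the E10.5 rostral one. Hoxa6 was 3.06-fold and 6.23-fold higher rostrally and Hoxa5 2.16-fold and 3.18-fold. Among groups 1 to 4, Hoxa4 was 6.48-fold and 2.6-fold higher rostrally, and Hoxd1 was 2.55-fold higher caudally at E9.5 and flat at E10.5 (0.11). The other 9 measured genes were within 2-fold at both stages. In the Hoxb cluster, Hoxb2 to Hoxb8 lay between -0.63 and 0.46 at E9.5 and between -0.20 and 0.41 at E10.5. Hoxb7, the gene whose promoter drives the reporter, is among them.

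Several posterior Hox genes differed at 1 stage only or in opposite directions. Hoxa10 was 6.01-fold higher caudally at E9.5 and 1.35-fold higher rostrally at E10.5. Hoxd13 was 10.9-fold higher caudally at E9.5, and at E10.5 its caudal array was not well above background. Hoxa11 was at least 6.32-fold higher caudally at E10.5 and 1.39-fold at E9.5. Hoxc9 was 4.66-fold higher rostrally at E9.5 and 2.11-fold higher caudally at E10.5. Hoxa13 gave -1.85 at E10.5 and 0.04 at E9.5, but its second probe gave -2.34 at E9.5, so its E9.5 value depends on the probe. Hoxb1, Hoxb13 and Hoxc13 were not well above background on any of the 4 arrays.

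**Figure D2:**
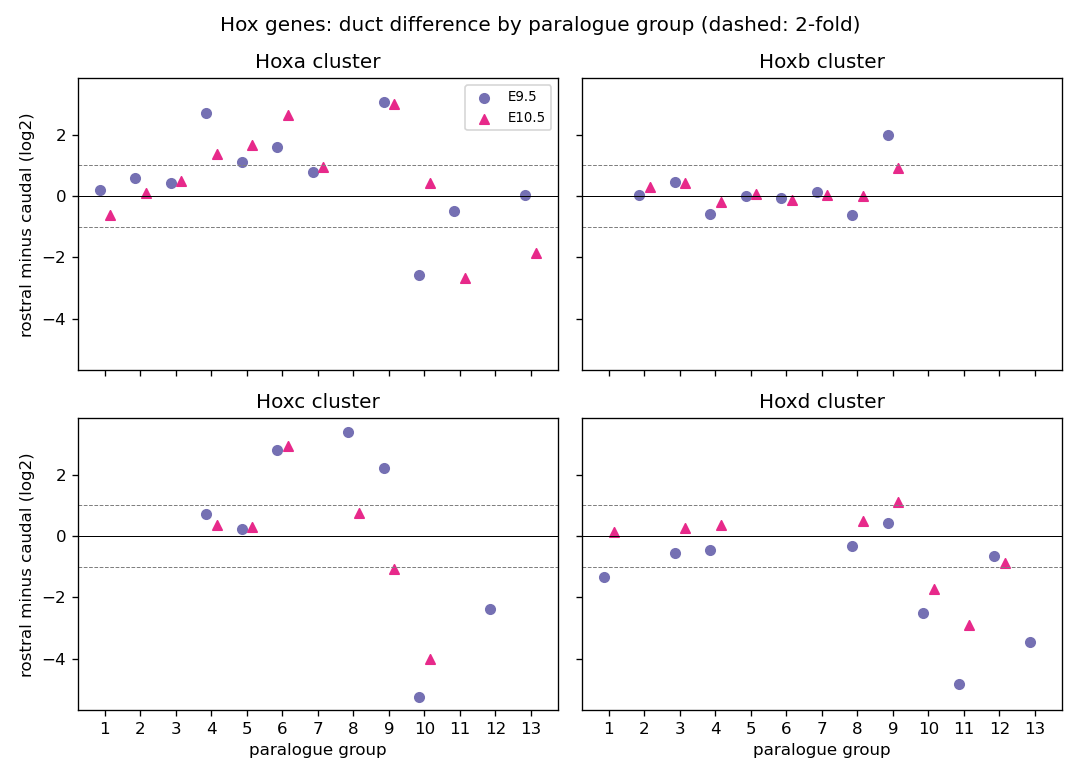
Rostral minus caudal difference (log2) of each measured Hox gene by paralogue group, 1 panel per cluster; circles are E9.5, triangles E10.5, and dashed lines mark 2-fold. Values of the Hoxb cluster up to group 8 lie near 0, while Hoxc10 and Hoxd11 lie far below 0 at both stages.

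Cdx1, a homeobox factor that regulates Hox genes in the posterior embryo, showed one of the largest caudal differences. Its level was -4.87 (not well above background) and 0.10 at E9.5 and -4.25 and 0.10 at E10.5, at least 22.2-fold and 20.4-fold higher caudally. Both caudal arrays were near the 75th percentile and both rostral arrays near background. Cdx2 and Cdx4 were well above background on the E9.5 caudal array alone, at -3.03 and -1.75. There they were at least 2.53-fold and at least 6.14-fold higher. Of the 16 measured genes of the Cdx and tail growth list, 6 were past 2-fold caudally at E9.5 (5.08% of all genes) and 2 at E10.5 (7.29%). The count at both stages was 2 (0.766% of all genes), Cdx1 and the Wnt target Sp5. None was past 2-fold rostrally at either stage. T was not well above background on any of the 4 arrays.

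Enzymes that make retinoic acid differed in which part they marked. Aldh1a1 read -0.07 and 4.03 at E9.5 and 0.10 and 3.94 at E10.5, 17.1-fold and 14.4-fold higher caudally. Aldh1a3 read -2.31 and 4.39 at E9.5 and 0.76 and 4.04 at E10.5, 104-fold and 9.68-fold higher caudally. Their caudal levels were alike at the 2 stages, and for Aldh1a3 the rostral level differed between stages. Stra6, the receptor that brings retinol into cells, was 2.92-fold and 2.64-fold higher caudally. Aldh1a2, the main embryonic enzyme of the pathway, went the other way, 1.81-fold higher rostrally at E9.5 and at least 5.33-fold at E10.5. Crabp1, a binding protein, was 6.71-fold higher rostrally at E9.5 and 6.48-fold higher caudally at E10.5. Of 17 measured members of the retinoic acid list, 5 were past 2-fold rostrally and 5 caudally at E9.5 (7.96% and 5.08% of all genes). At E10.5 it was 2 and 6 (4.58% and 7.29%). The median difference was 0.54 at E9.5 and -0.30 at E10.5. Past 2-fold at both stages were 3 members caudally (0.766% of all genes) and 0 rostrally (1.16%).

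Several genes of Ret signalling and the bud tip were higher caudally at both stages. Of 19 measured members, 9 were past 2-fold caudally at E9.5 (5.08% of all genes), 10 at E10.5 (7.29% of all genes) and 7 at both (0.766% of all genes), and 0 were past 2-fold rostrally at both. The list was picked with earlier results of these data in view, and its median difference was -0.99 at E9.5 and -1.07 at E10.5. Ret, the GDNF receptor, read -0.66 and 2.23 at E9.5 and -0.20 and 1.79 at E10.5, 7.43-fold and 3.97-fold higher caudally. Both caudal arrays lay above both rostral arrays by more than 1.9 on the log2 scale. Gfra1, its co-receptor, was 3.23-fold and 4.12-fold higher caudally. Etv4, a transcription factor downstream of Ret, was 2.6-fold and 4.5-fold higher, with a second probe at -1.73 and -2.69. Sox8 was 2.73-fold and 6.93-fold higher, the receptor Kit 2.73-fold and 2.46-fold, and Wnt11 2.37-fold and 2.1-fold. Etv5 was 2.32-fold higher caudally at E9.5 and 1.81-fold at E10.5.

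Duct transcription factors had few calls shared by the 2 stages. Of 14 measured members, 1 was past 2-fold rostrally and 3 caudally at E9.5 (7.96% and 5.08% of all genes). At E10.5 it was 4 rostrally and 0 caudally (4.58% and 7.29%). Pax2 differed by -0.19 and 0.32. Pax8 read 1.30 and 0.03 at E9.5 and 1.77 and 0.35 at E10.5, 2.41-fold and 2.67-fold higher rostrally, and was the only one of 14 measured members past 2-fold the same way in both pairs. Gata3 was 2.48-fold higher caudally at E9.5 and flat at E10.5 (-0.07). Of 15 trunk and collecting duct genes, 2 were past 2-fold rostrally in both pairs (1.16% of all genes) and 0 caudally (0.766%). The 2 were the water channel Aqp3, 2.5-fold and 19.8-fold higher, and the adhesion protein Cdh16, 2.11-fold and 3.6-fold. Aqp3 read 3.30 on the E10.5 rostral array, above the other 3 arrays.

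**Figure D3:**
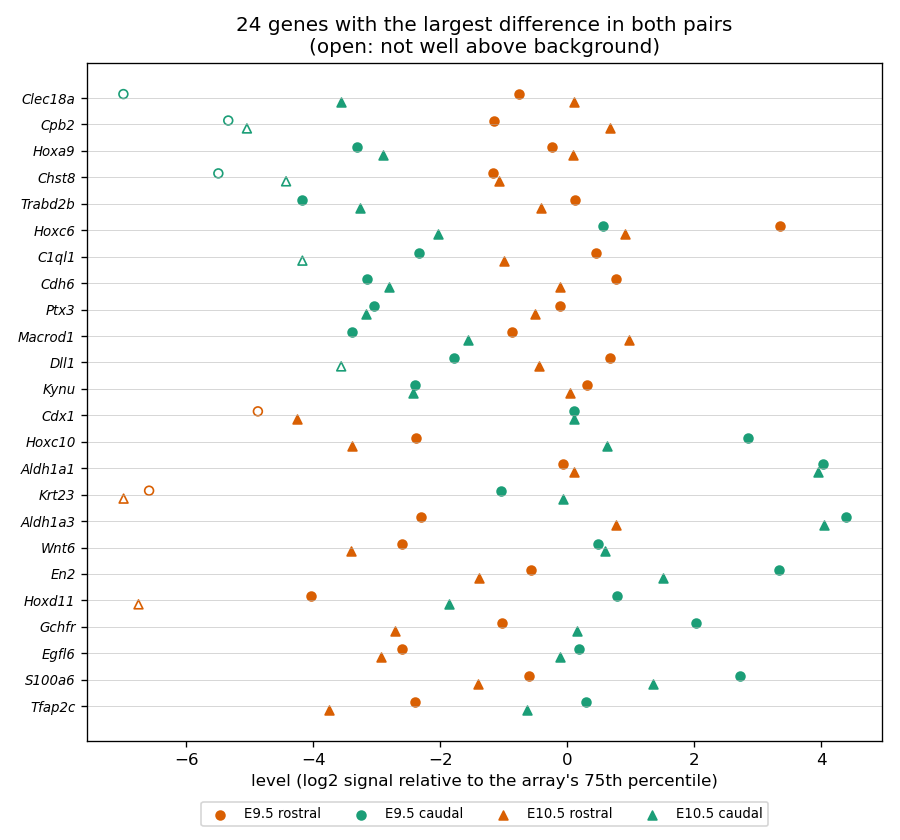
Level (log2 signal relative to the array's 75th percentile) on each of the 4 duct arrays for the 12 genes each way with the largest difference in both pairs; circles are E9.5, triangles E10.5, orange is rostral, green is caudal, and open symbols are not well above background. For every gene shown the rostral and caudal symbols of a stage lie more than 2-fold apart in the same direction.

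The other genes with the largest caudal differences at both stages came from several families. Krt23, a keratin, was not well above background rostrally at either stage and read -1.04 and -0.06 caudally. It was at least 10.1-fold and at least 25.9-fold higher caudally. Wnt6, a secreted Wnt ligand, was 8.5-fold and 16.0-fold higher, and the homeobox gene En2 15-fold and 7.45-fold. S100a6, a calcium-binding protein, was 10.0-fold and 6.74-fold higher, Tfap2c, an epithelial transcription factor, 6.46-fold and 8.68-fold, Gchfr, which regulates biopterin synthesis, 8.32-fold and 7.26-fold, and Egfl6, a secreted matrix protein, 6.87-fold and 7.04-fold. In the Wt1-GFP pair, Hoxc10 and Hoxd11 were called past 2-fold caudally among the 12. Gchfr (2.26-fold) and Aldh1a1 (at least 8.48-fold) were called past 2-fold rostrally there. Cdx1 and Egfl6 had only lower bounds there, 1.85-fold and 1.03-fold higher caudally, since the rostral array was not well above background. Wnt6 and Tfap2c are also on the list of surface ectoderm markers. Of its 9 measured members, 2 were past 2-fold caudally in both pairs (0.766% of all genes) and 0 rostrally (1.16%). The summed level of that list was 6.43 to 6.52 on the 4 arrays, a sum that its brightest members carry. The median level of its members was -2.26 (rostral) and -1.48 (caudal) at E9.5 and -2.32 and -0.85 at E10.5. Its members Krt15 and Grhl3 were not well above background on any of the 4 arrays. The part of such cells in these values was not tested.

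The largest rostral differences at both stages included enzymes and adhesion genes. Cpb2, a carboxypeptidase, read -1.15 rostrally at E9.5 and 0.67 at E10.5 and was not well above background caudally. It was at least 11.8-fold and at least 24.5-fold higher rostrally. Clec18a, a lectin, was at least 15.5-fold and 12.8-fold higher, and its second probe gave 5.92 and 6.26. Trabd2b, a protease that acts on Wnt proteins, was 19.7-fold and 7.2-fold higher with its brightest probe, while the next probe gave smaller differences of 1.56 and 1.52. Also higher were the cadherin Cdh6 15.1-fold and 6.46-fold, and the secreted protein Ptx3 7.57-fold and 6.35-fold. The sulfotransferase Chst8 was at least 11.7-fold and at least 7.31-fold higher. Kynu, an enzyme of tryptophan breakdown, was 6.52-fold and 5.51-fold higher. C1ql1 and Macrod1 completed the 12, at 6.86-fold and at least 7.71-fold, and at 5.72-fold and 5.81-fold. Cdh6 (at least 11.8-fold), Ptx3 (7.85-fold), Kynu (5.02-fold) and Trabd2b (4.26-fold) were past 2-fold rostrally in the Wt1-GFP pair too. So were Dll1 (2.84-fold), Macrod1 (2.37-fold) and Cpb2 (at least 2.22-fold). Hoxa9 and C1ql1 were past 2-fold caudally there, and Clec18a, Chst8 and Hoxc6 were not called. Ptx3 read 3.81 on the Wt1-GFP rostral array and -0.12 on the E9.5 rostral duct array. Of 17 nephrogenic genes, 4 were past 2-fold rostrally in both pairs (1.16% of all genes), 2 caudally (0.766%) and 2 in opposite directions (1.4%). Tmem100 was at least 5.01-fold and at least 2.94-fold higher caudally, and Osr1 gave 1.63 at E9.5 and -2.60 at E10.5. Wnt4 and Sall1, genes of nephron formation, were 4.85-fold and 4.03-fold and 2.35-fold and 6.4-fold higher rostrally, and Wt1, which marks mesonephric and coelomic cells, was 3.33-fold and at least 7.82-fold higher. Whether other cells carried along with the rostral part bear on these values was not tested. The level of Wt1 was -0.20 on the E9.5 rostral array and 4.08 on the Wt1-GFP rostral array.

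Notch genes were the signalling list with the most members past 2-fold rostrally in both pairs, 3 of 15 (1.16% of all genes), with 0 caudally (0.766%). The Wnt response list came next with 2 of 16. The ligand Dll1 was 5.53-fold and at least 8.64-fold higher rostrally, with a second probe at 2.55 and 1.55. The target Hes5 read 3.25 and 1.86 at E9.5 and 4.39 and 0.67 at E10.5, 2.64-fold and 13.1-fold higher, and Hey1 3.84-fold and 3.6-fold. In the Wnt response list, 10 of 16 members were past 2-fold caudally at E9.5 (5.08% of all genes) and 1 at E10.5 (7.29%). The median was -1.25 at E9.5 and -0.14 at E10.5. Among the 10 the feedback inhibitor Axin2 gave -1.53 at E9.5, but its second probe gave 0.06. The Wnt modulators Sfrp2 (4.33-fold and 6.07-fold) and Rspo1 (at least 14.2-fold and at least 2.48-fold) were higher rostrally at both stages.

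Cell cycle and glycolysis genes shifted slightly towards the caudal part at both stages. The median over 19 cell cycle genes was -0.36 at E9.5 and -0.78 at E10.5, and 17 of them lay on the caudal side in both pairs, with 0 past 2-fold in both. The median over 18 glycolysis and hypoxia genes was -0.31 and -0.60, with 14 on the caudal side in both. The glucose transporter Slc2a3 was 6.35-fold and 2.84-fold higher caudally. Over all genes 26.3% lay on the caudal side in both pairs and 27.4% on the rostral side.

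**Figure D4:**
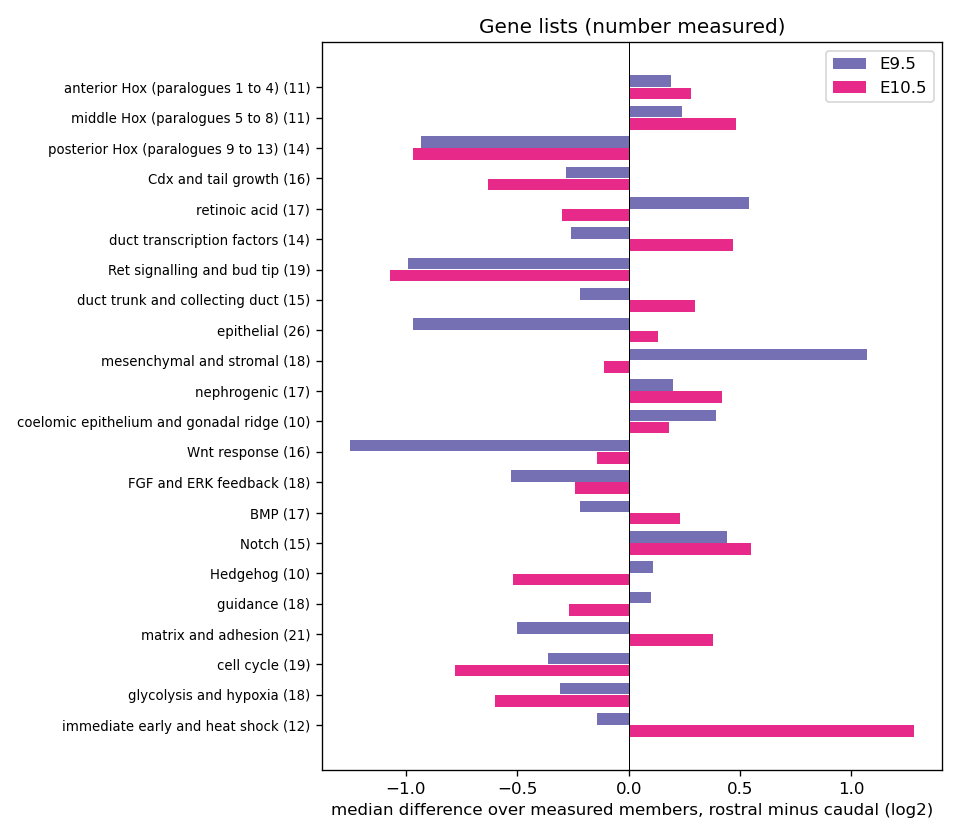
Median rostral minus caudal difference (log2) over the measured members of each gene list, with the number measured in brackets; violet bars are E9.5 and pink bars E10.5. The Ret and bud tip list and the posterior Hox list lie near -1 at both stages, while the epithelial, mesenchymal and Wnt response lists are far from 0 at E9.5 only.

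Epithelial and mesenchymal genes differed at E9.5 and not in the same way at E10.5. Of 26 epithelial genes, 12 were past 2-fold caudally at E9.5 (5.08% of all genes) and 0 at E10.5 (7.29%). The median was -0.97 at E9.5 and 0.13 at E10.5. Epcam, a surface protein of epithelia, was 3.55-fold higher caudally at E9.5 and 1.16-fold at E10.5, and the tight junction gene Cldn4 4.68-fold and 1.15-fold. Of 18 mesenchymal and stromal genes, 9 were past 2-fold rostrally and 3 caudally at E9.5 (7.96% and 5.08% of all genes). At E10.5 it was 3 rostrally and 1 caudally (4.58% and 7.29%). Tcf21 was 5.59-fold and 2.99-fold and Col1a1 9.34-fold and at least 2.16-fold higher rostrally. Prrx1, a limb and stromal factor, was 3.05-fold and at least 2.1-fold higher caudally, with a second probe at -0.89 and 1.81.

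Among the 4 duct arrays, markers of other cell types moved with single arrays. On the E9.5 rostral array, 8 of 14 heart genes and 9 of 15 neural genes were past 2-fold above the caudal array (7.96% of all genes). At E10.5 it was 1 of each list (4.58% of all genes), and 3 of each were past 2-fold caudally (7.29% of all genes). The summed level of the heart list was 4.63 there and 1.52 to 1.70 on the other 3 arrays, and that of the neural list 7.52 against 5.53 to 5.83. Nkx2-5, a defining heart factor, and Pax6, a defining neural one, were not well above background on any of the 4 arrays. Myl4, a myosin light chain, read 3.72 on the E9.5 rostral array and -3.39 on the E9.5 caudal array, a 138-fold difference. Stmn2, a neuronal gene, read 3.47 and -3.39. In the Wt1-GFP pair of E9.5 the median difference was 1.85 over the heart list and 0.39 over the neural list. Myl4 was 36.4-fold higher rostrally in that pair. Globin genes were higher caudally at E9.5 and rostrally at E10.5: Hbb-y read 3.06 and 4.27 at E9.5 and 1.91 and -3.64 at E10.5. Alas2 and Gata1 of the same blood list did not share that order. Alas2 was 5.51-fold higher rostrally at E9.5 and gave -0.62 at E10.5. Gata1 was at least 2.53-fold higher rostrally at E9.5 and at least 3.95-fold higher caudally at E10.5. Of 9 measured blood genes, 4 were past 2-fold caudally and 2 rostrally at E9.5 (5.08% and 7.96% of all genes). At E10.5 it was 1 and 4 (7.29% and 4.58%). The blood list summed to 0.39 on the E10.5 caudal array and to 2.88 to 5.16 on the others. The list of immediate early and heat shock genes had 12 measured members. At E10.5, 6 were past 2-fold higher on the rostral array (4.58% of all genes) and 0 on the caudal one (7.29%). The 6 were the immediate early genes Fos (9.4-fold), Fosb, Junb, Egr1, Egr2 and Ier2. The part of these cells and genes in the duct differences was not tested.

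**Figure D5:**
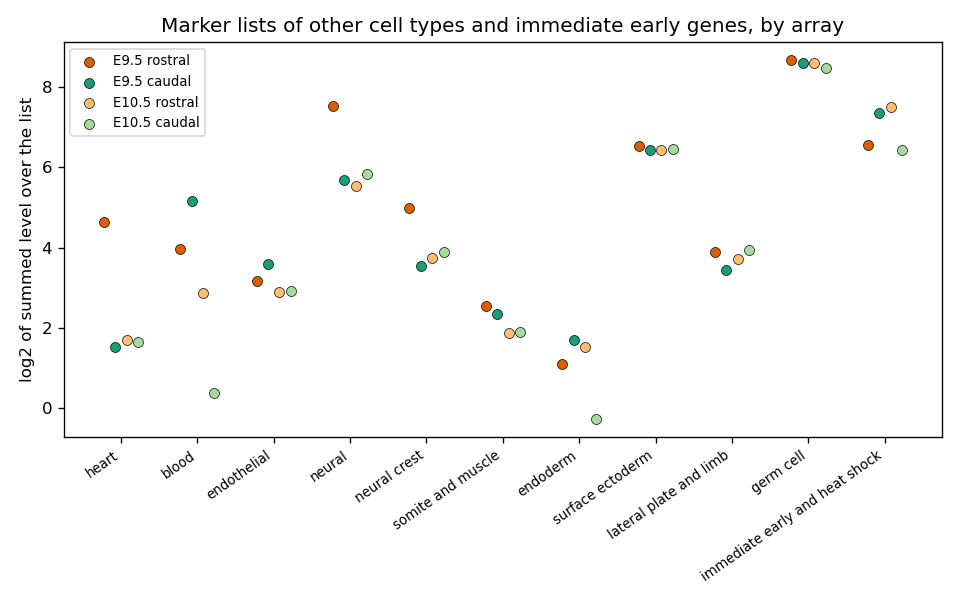
Log2 of the summed level of each marker list on the 4 duct arrays. The E9.5 rostral array stands above the other 3 for heart, neural and neural crest markers. The E10.5 caudal array stands below the others for blood and endoderm markers. A sum is carried by the brightest members of a list. Of the 8 measured neural crest markers, 4 were higher rostrally and 4 caudally at E9.5, with a median difference of -0.1.

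Genes that differed at 1 stage only numbered 1169 at E9.5 (4.23%; 629 or 2.27% higher rostrally, 540 or 1.95% caudally) and 1028 at E10.5 (3.72%; 408 or 1.47% rostrally, 620 or 2.24% caudally), where the other stage had to be within 0.5 on the log2 scale with both arrays well above background. The rostral genes with the largest E9.5 difference were Myl4 and the neuronal genes Scg3 (57.1-fold), Cntn2 (37.8-fold), Kif1a (33.3-fold), Mapk10 (at least 25.4-fold) and Syp (18.4-fold), which were high on the array where the neural markers were high. The caudal ones were Sptlc3, an enzyme of sphingolipid synthesis (29.9-fold), Plekhd1os (16.0-fold), Endod1 (13.3-fold), Hsd17b11 (9.5-fold), Prr15 (8.49-fold) and the transcription factor Tbx2 (8.21-fold). Second probes of Cntn2 (-1.37) and Hsd17b11 (1.67) were past 2-fold at E10.5, and that of Mapk10 gave 1.39 at E9.5. Tbx2 read 1.54 on the E9.5 caudal array, and 1.72 and 1.59 at E10.5, so that the E9.5 rostral array alone was low.

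At E10.5 alone, the rostral genes with the largest difference were Tmem213 and Fxyd2, a regulator of the sodium pump (14.8-fold each), S100a1 (13.2-fold), Fos (9.4-fold), Ly6a (7.85-fold) and Maf (at least 7.75-fold). Fxyd2 read 1.47 on the E10.5 rostral array and -2.66 to -2.40 on the other 3, and its second probe gave 4.23 at E10.5. The second probe of S100a1 gave 1.47 there, and that of Maf gave 1.43 at E10.5 but 3.88 at E9.5, so the flat E9.5 value of Maf depends on the probe. The caudal ones included Pde10a (at least 44.8-fold), Ehbp1l1 (at least 24.8-fold), Rnf32 (20.6-fold), Samd5 (19.4-fold) and N4bp3 (15.7-fold). The second probe of Pde10a gave -2.44 at E10.5 and 1.70 at E9.5, so its flat E9.5 value depends on the probe. The interaction of stage and position has no replicate and was not tested.

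The Wt1-GFP pair of E9.5, which played no part in choosing the duct genes, was read for the genes that agreed in both duct pairs. Over all genes 9.24% were past 2-fold in that pair. Of the 320 rostral genes, 70 (21.9%) were past 2-fold rostrally there (background 6.17%) and 36 (11.2%) caudally (background 3.06%). Of the 212 caudal genes, 33 (15.6%) were past 2-fold caudally (background 3.06%) and 32 (15.1%) rostrally (background 6.17%). Hoxd11 and Hoxc10 were 58.8-fold and 8.37-fold higher caudally in the Wt1-GFP pair as well, while Aldh1a1 was at least 8.48-fold higher rostrally in the Wt1-GFP pair and higher caudally in the duct.

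A second probe was available for 174 of the 532 genes that agreed in both duct pairs. It lay on the same side in both pairs for 125 (71.8%) and past 2-fold in both for 60 (34.5%), and the other 358 genes rest on 1 probe.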

How the data were processed

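Per the labels, 10 ng of total RNA from sorted cells was amplified, labelled with Cy3 and hybridised to 1-colour Agilent arrays. Per the file headers, the deposited intensity is gProcessedSignal from Agilent Feature Extraction 10.7.3.1, taken after background subtraction within the array. The deposited matrix holds log2 values centred per probe, whose scale was inferred by comparison with the scanner values (r = 0.99978, column medians -0.07 to 0.08); it served as an alternative.

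Outlier spots were left out and repeated spots averaged, which left 55663 of 55681 probes. Probes were named by RefSeq accession (26749), symbol (3822), synonym (638) or their own name (24454). A gene was represented by its brightest probe over the 4 duct arrays. A probe counted as well above background on an array when all its spots did. At first 0.5 of the spots sufficed; this was changed after the counts had been seen, because averaging then put the floor below the dimmest well-above spot, and the reading of the no-filter alternative was changed at the same time. Both first versions are kept as added alternatives. Analyses used limma 3.58.1 in R 4.3.3, checked on simulated data, and pandas in Python.

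Named genes were 8 label and duct genes, the 12 genes each way with the largest smaller difference of the pairs, 6 per stage and direction that differed at 1 stage only, 4 each way in opposite directions, every Hox gene, and up to 5 members per list; a few genes that the rule takes are not reported here. Other genes named with values are list members picked after their values were seen. The comparison and the 32 lists (468 genes) were chosen with earlier results of these data known. Motifs were searched in RefSeq promoters. Alternatives covered background correction, normalization, the deposited matrix, filters, probes, threshold, floor and the terms of the fit.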

Additional observations from a re-analysis of the deposited data

Results flagged for a closer look

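These genes were past 2-fold in opposite directions at the 2 stages; each stage has 1 array per side, so the difference between stages was not tested. Higher rostrally at E9.5 and caudally at E10.5 were Scrt2 (4.55 and -3.09 on the log2 scale), Mir124-2hg (4.68 and -3.06), Akr1b7 (2.88 and -3.15), Smpd3 (3.55 and -2.87) and Hoxc9 (2.22 and -1.07). Higher caudally at E9.5 and rostrally at E10.5 were Egr2 (-2.03 and 3.05), Glt28d2 (-1.88 and 2.01), Dnajc16 (-2.20 and 1.87), Usp43 (-2.26 and 1.78), and the embryonic globins Hbb-y (-1.21 and 5.55) and Hba-x (-1.14 and 3.20). Values of Mir124-2hg, Akr1b7, Smpd3, Glt28d2, Dnajc16 and Hba-x rest at 1 stage or both on an array that was not well above background and are lower bounds in size. Of all 27668 genes, 387 (1.4%) were past 2-fold in opposite directions.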

How the results depend on the processing

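The limma fit called 0 genes under each of its 11 settings, with the lowest adjusted p at 0.0646 (intensity trend) and 1404 to 2108 genes at an unadjusted p under 0.05; without the stage block it also called 0. The main fit pairs the arrays by stage; a block by replicate number could not be fitted, since the labels give no replicate numbers. Leaving out an array leaves the other pair's difference, with no test. Counts past 2-fold depended on the processing. With normexp background, E9.5 gave 1163, E10.5 798, both pairs 82 rostral and 50 caudal, E9.5 only 554, E10.5 only 315 and opposite directions 60. At 4-fold the same counts were 867, 632, 43, 26, 158, 117 and 37. With genes well above background on all 4 arrays, E9.5 gave 2268, E10.5 1972, rostral in both 199 and opposite 235. The rule for repeated spots was changed after the counts were seen: with 0.5 of the spots, as first run, E9.5 gave 3905, E10.5 3314, both pairs 325 rostral and 229 caudal, and opposite 409. The no-filter alternative was also redefined after its counts were seen. As first run, with 0.5 of the spots and the brighter array at any level, it gave 10977 at E10.5, 398 caudal in both pairs and 722 opposite, where genes dim on both arrays differ by the unequal floors alone; with a bright array required it gave the main counts within 1.5 times. The share higher rostrally was 61.0% at E9.5 and 49.4% with quantile normalization, or 71.0% at 4-fold; at E10.5 it was 38.6%, and 52.4% without the floor. Of the 24 genes with the largest differences, all stayed past 2-fold in both pairs under every setting except that 16 remained with all 4 arrays required. Clec18a, Cpb2, Chst8, C1ql1, Dll1, Cdx1, Krt23 and Hoxd11 were lost there, as a dim array removes them. The 24 were picked from these data for that size. Their staying at 4-fold, without the floor or without the filter was therefore largely fixed by the choice and does not speak for the other genes. Of 268 differences of named genes, 128 differed by at least 0.5 on the log2 scale with normexp and 34 without the floor. Of the 532 genes, 132 were shared with normexp and 471 with quantile normalization. The 1 array per side limits precision.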
